A study of Arabidopsis thaliana with 126 samples.

Results

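The nuclear genes for the photosynthetic apparatus were followed through both RNA-seq tables of the study. They were chosen by name and not by level, from a fixed list of loci: LHCA and LHCB genes, nuclear genes for subunits of photosystem I (PSA) and photosystem II (PSB), the RBCS genes and RCA. LHCB2.3, LHCB7, PSBP-2, PSBTN, PSB27 and PSB28 were not on the list and are described apart. The list gave 46 of the 33602 genes in each table. The 46 genes fell into 5 groups of role, namely 13 genes for the antenna of photosystem II, 6 for the antenna of photosystem I, 12 for photosystem I, 10 for photosystem II and 5 for Rubisco, the last group counting RCA. All RNA came from 3-day-old seedlings of Arabidopsis thaliana grown in darkness on sucrose medium, kept in hydrocarbon-free air or given ethylene gas (ET) for the final 4 hr. The first table held 20 libraries in the Landsberg erecta (Ler) accession: ein6-1 een-1, ein2-45, ein6-1, een-1 and Ler itself, each in ET and in air. The second table held 8 libraries in the Columbia (Col-0) accession, all in air: arp5-1, een-2, ino80-8 and Col-0. Each group had 2 libraries, labelled as biological replicates. The ein6-1 allele is a short deletion with a premature stop codon in REF6, which encodes a histone demethylase. The een-1 allele is an inversion at EEN, which encodes a subunit of the INO80 chromatin remodelling complex, and een-2 is a T-DNA insertion in the same gene. The ino80-8 allele is a T-DNA insertion in INO80, arp5-1 is an allele of the complex subunit gene ARP5, and ein2-45 is an allele of EIN2, whose product carries the ET signal to the nucleus. The ein6-1 een-1 seedlings carry both of those alleles.

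In the thylakoid membrane the antenna proteins (LHCB for photosystem II and LHCA for photosystem I) hold chlorophyll and pass light energy to the reaction centres, whose core proteins are encoded in the plastid and are surrounded by the nuclear-encoded subunits studied here. The stroma holds Rubisco, the CO2-fixing enzyme, whose small subunit is made from the RBCS genes and whose active sites are kept clear by the activase RCA. In darkness a seedling keeps these genes low and its plastids without chlorophyll, and light raises the genes together during greening. ET signalling works through EIN2 and the transcription factor EIN3, which limit the greening of seedlings that are still covered by soil.

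The upstream sequences of 4 genes are printed as examples, chosen with the values known. The genes are LHCB1.3, among those with the largest differences, LHCA4, RBCS2B, whose differences in the Col-0 table were small, and LHCB4.3, which was not called in ein6-1 een-1. Each is the 250 bases before the annotated start of the gene, read 5′ to 3′ on the strand of the gene from the RefSeq copy of TAIR10.1 (the Col-0 reference). LHCB1.3 lies on the plus strand (chr1:10477635-10477884), LHCA4 on the minus strand (chr3:17495034-17495283), RBCS2B on the minus strand (chr5:15382072-15382321) and LHCB4.3 on the plus strand (chr2:16745378-16745627). Capitals mark 3 motifs, searched on both strands: the G-box CACGTG, the I-box GATAAG and CCAATC, which binds GLK proteins and contains the letters of the CCAAT box.
LHCB1.3: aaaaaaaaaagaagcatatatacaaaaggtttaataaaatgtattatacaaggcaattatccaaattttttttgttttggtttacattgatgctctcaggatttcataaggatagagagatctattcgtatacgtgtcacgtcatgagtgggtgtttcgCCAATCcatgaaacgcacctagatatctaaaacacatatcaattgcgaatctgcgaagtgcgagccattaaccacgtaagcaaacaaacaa
LHCA4: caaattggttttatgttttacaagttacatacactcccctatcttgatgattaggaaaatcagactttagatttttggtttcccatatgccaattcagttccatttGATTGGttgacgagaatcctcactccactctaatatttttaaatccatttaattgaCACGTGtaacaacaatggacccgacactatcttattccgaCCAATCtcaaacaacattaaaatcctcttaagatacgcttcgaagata
RBCS2B: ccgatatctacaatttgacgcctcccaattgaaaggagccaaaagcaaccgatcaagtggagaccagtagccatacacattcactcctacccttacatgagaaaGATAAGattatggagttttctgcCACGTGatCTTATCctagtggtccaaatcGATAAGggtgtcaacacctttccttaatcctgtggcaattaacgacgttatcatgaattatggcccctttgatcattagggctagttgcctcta
LHCB4.3: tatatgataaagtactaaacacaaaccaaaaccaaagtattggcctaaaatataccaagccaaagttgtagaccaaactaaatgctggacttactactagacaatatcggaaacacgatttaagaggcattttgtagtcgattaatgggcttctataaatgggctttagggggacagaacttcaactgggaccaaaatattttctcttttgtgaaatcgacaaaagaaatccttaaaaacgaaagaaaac

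CCAATC occurs upstream of LHCB1.3 and LHCA4, RBCS2B holds a G-box between I-boxes, and none of the motifs is in the LHCB4.3 window. They are also absent from the windows of LHCB1.2, PSAG, PSAL and LHCB5, which were called lower in ein6-1 een-1. Over the 46 genes the G-box was present in 8 (17.4%), against 6.49% of 27443 protein-coding genes with windows of the same length. The I-box was present in 11 (23.9%, against 12.3%) and CCAATC in 11 (23.9%, against 10.2%). At least one of the motifs was found in 19 of the 46 genes (41.3%), against 26.1% of all. CCAATC was spread unevenly over the roles, with 6 of 13 antenna genes of photosystem II, 3 of 6 antenna genes of photosystem I, 0 of 12 photosystem I genes, 1 of 10 photosystem II genes and 1 of 5 in the Rubisco group. These matches describe the letters and name no bound factor.

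Several members are near copies. LHCB1.2, LHCB1.1 and LHCB1.3 stand next to each other on chromosome 1 (10472280 to 10479114) and share 95.6% to 96.4% of their coding bases. RBCS3B, RBCS2B and RBCS1B form a second cluster on chromosome 5 (15376988 to 15385320), whereas RBCS1A lies alone on chromosome 1 (25048158 to 25049667). A 50-base coding window identical to one in another gene was found in 12 members and in none of the other 34, covering 51.3% of the windows in RBCS1B, 40.6% in RBCS3B, 38.0% in RBCS2B, 34.3% in LHCB1.1 and 26.6% in LHCB1.3. The split of reads within the LHCB1, LHCB2 and RBCS families is therefore uncertain, and the sums over a family are firmer than its members. A further limit is that 16 members overlap a gene on the other strand and 2 (PSAD-2 and PSBP-1) a gene on the same strand, and whether strand was used in counting is not given in the sources used here.

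The deposited values are TPM, estimated transcript levels scaled to a common total in each library and set per transcript length, so the depth behind each value is unknown. Ribosomal RNA took 2.80% to 30.3% of the TPM in the Ler table, most in the second ein6-1 ET library, and 0.921% to 3.54% in the Col-0 table. Levels below are therefore TPM rescaled within each table by median-of-ratios factors, unless named as deposited. A gene was called when limma gave an adjusted p below 0.05 over all genes tested (20534 in the Ler table, 20145 in the Col-0 table), and log2 fold changes are of rescaled TPM plus 1. All 46 members passed the low-value filter in the Col-0 table and 45 in the Ler table, where LHCB1.4 reached 1.03 rescaled TPM at most and was not tested. With 2 libraries per group, one library can set a result: every one of 45 members was higher in the first than in the second Ler ET library, by a median of 0.67 (log2), and every one of them was lower in the first than in the second ein6-1 ET library, with a median difference of -0.70. On the deposited TPM the ein6-1 ET gap was not seen, with 22 of 45 members higher and 23 lower in the first of these libraries (median -0.008). As a share of nuclear TPM without ribosomal RNA, the members took 1.08% in the first ein6-1 ET library and 1.53% in the second. In Ler ET, 44 of 45 members were still higher in the first library on the deposited TPM (median 0.51). All 46 were lower in the first than in the second Col-0 library, with a median difference of -0.51, and likewise in ino80-8 (-0.32). Transcripts of EIN2 stood at 8.1 and 7.6 in ein6-1 een-1 and 42.6 and 42.1 in ein2-45 in air, against 53.9 and 56.7 in Ler. EEN had 0.3 and 0.9 in een-2, against 49.7 and 39.1 in Col-0, and INO80 had 3.3 and 2.8 in ino80-8, against 18.8 and 20.7 in Col-0. The levels of REF6 in ein6-1, EEN in een-1 and ARP5 in arp5-1 were not lower than in their wild types by the test, so they do not check those labels. The dark-grown label was read against PORA and PHYA, both detected in every library, with PORA at 186 and 258 in ein6-1 een-1, against 360 and 396 in Ler. Their detection alone does not check darkness. The light markers PORC, ELIP1 and ELIP2 summed in air to 20.2 to 23.3 in Ler, 11.9 to 18.2 in ein6-1 een-1 and 67.1 to 67.2 in ein2-45. In the Col-0 table they summed to 63.0 to 101 in Col-0 and 25.9 to 37.9 in arp5-1.

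**Figure D1:**
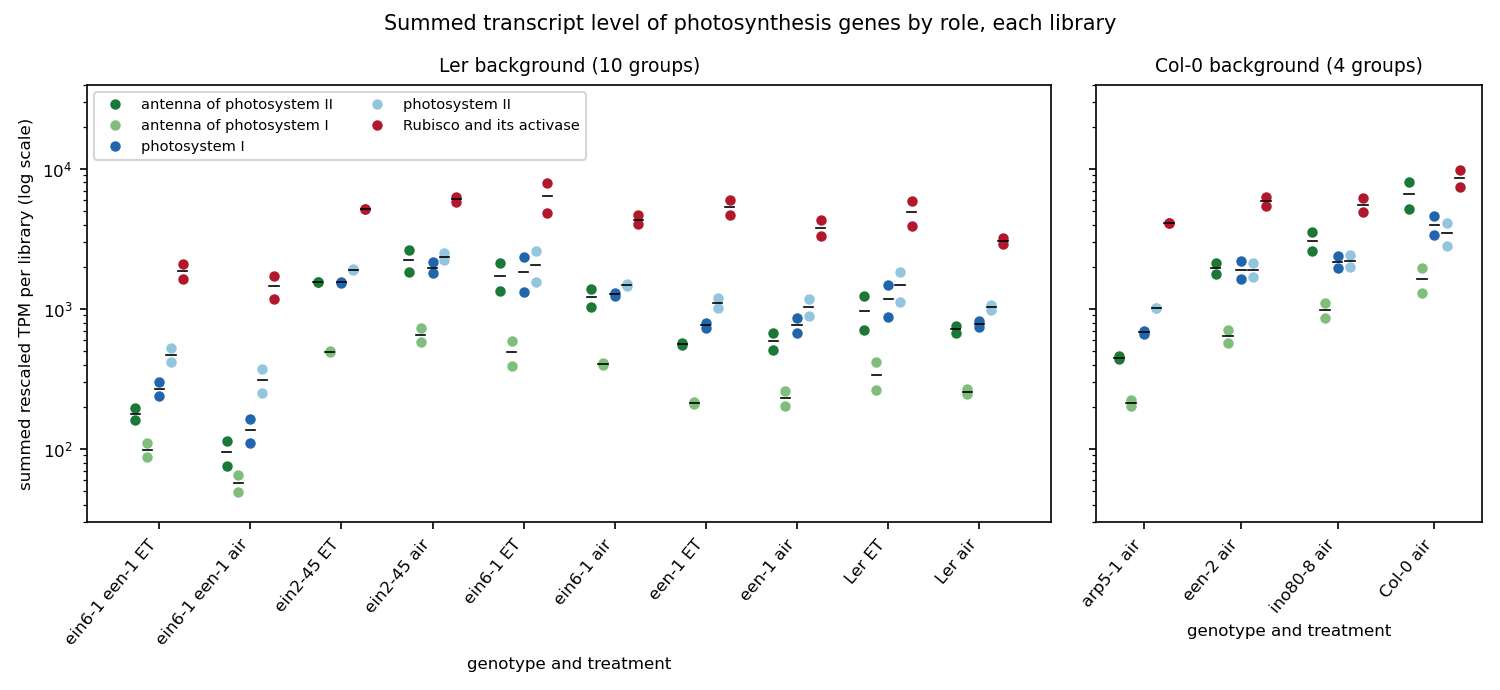
Summed rescaled TPM of each role group in every library, on a log axis, with groups of libraries along the horizontal axis (Ler background left, Col-0 background right). Points are libraries and short bars are means of 2. In air the summed antenna of photosystem II stood at 75.1 and 114 in ein6-1 een-1, against 669 and 761 in Ler, and at 437 and 460 in arp5-1, against 5149 and 8032 in Col-0.

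Comparing ein6-1 een-1 with Ler in air asks what the joint loss of both chromatin regulators did to these genes in darkness. Photosynthesis transcripts were lower across every role. Of 45 members tested, 43 were called lower and 0 higher, against 19.9% of all tested genes called lower. The median log2 fold change was -2.12, a 4.34-fold lower level, where the median over all tested genes was -0.003. On the deposited TPM 42 were called lower, where 6.3% of all tested genes were and the median of all genes was shifted by 0.33. For 44 of the 46 members both ein6-1 een-1 libraries lay below both Ler libraries. The share of all genes separated in this way was not counted, here or below, so such counts only describe the members. In bulk RNA, fewer cells that express these genes and less of these transcripts per cell cannot be told apart. Seed markers went the other way: 10 seed storage and oil body genes summed to 10745 and 12045 in ein6-1 een-1, against 2266 and 2135 in Ler. Their part in the result was not tested. The sum over all 46 photosynthesis genes was 1659 and 2434 in ein6-1 een-1, against 5544 and 6156 in Ler.

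The antenna of photosystem II had the lowest median log2 fold change of the roles, at -2.60, with LHCB1.3 at its lower end and 10 of 12 genes called lower. LHCB1.3 (AT1G29930), the most abundant gene of the light-harvesting trimers, had 6.3 and 13.0 in ein6-1 een-1, against 196 and 236 in Ler (log2 fold change -4.42, SE 0.36, adjusted p = 8.7e-07). Its neighbour LHCB1.2 (AT1G29910) had 1.61 and 2.35 in ein6-1 een-1, against 44.1 and 42.3 in Ler (-3.90, SE 0.31, adjusted p = 6.2e-07). Both libraries of the double mutant were far below both of Ler for these genes. LHCB5 (AT4G10340), a monomeric linker between trimers and core and the second most abundant member of the group, had 12.3 and 19.7, against 129 and 145 in Ler. A pair of exceptions were picked out after the values were seen.

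LHCB4.3 (AT2G40100), an isoform of the linker family LHCB4 that is also called LHCB8, had 8.82 and 10.6 in ein6-1 een-1, against 9.70 and 9.17 in Ler, so its libraries overlapped (log2 fold change 0.03, SE 0.16, adjusted p = 0.89). Its paralogs behaved otherwise: LHCB4.1 had a log2 fold change of -1.70 and LHCB4.2 of -2.19, both called. The other exception, LHCB1.1, had low estimates, with 0.226 and 0.120 in ein6-1 een-1 and 1.13 and 0.476 in Ler. The Ler reads were aligned to TAIR10, the Col-0 reference, and LHCB1.1 shares sequence with its neighbours, so its true level is uncertain. LHCB1.1 was not called by limma with a pseudocount of 1 (log2 fold change -0.60, adjusted p = 0.098) and was called with a pseudocount of 0.1 (adjusted p = 0.02).

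All 6 antenna genes of photosystem I were called lower, with a median of -2.20. LHCA3 (AT1G61520), a core member of that antenna belt, had 3.7 and 7.1 in ein6-1 een-1, against 58.9 and 71.3 in Ler (log2 fold change -3.42, SE 0.27, adjusted p = 5.8e-07). LHCA4 (AT3G47470), whose upstream sequence is printed above, had 22.2 and 28.8, against 82.5 and 82.8 in Ler (-1.67, SE 0.20). LHCA5 (AT1G45474), a minor member that helps join photosystem I to the NADH dehydrogenase-like complex, had the smallest difference of the group, with 8.6 and 10.4 against 17.7 and 19.5 in Ler (-0.91, SE 0.21, adjusted p = 0.0036). The groups of libraries did not overlap for any of these genes.

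The 12 photosystem I genes were all called lower and lay close together, between -3.42 for PSAG and -1.91 for PSAH-2. PSAG (AT1G55670), which helps bind the antenna belt, had 6.4 and 10.5 in ein6-1 een-1, against 92.1 and 103 in Ler (adjusted p = 3.8e-07, SE 0.25). PSAL (AT4G12800), which takes part in docking the mobile antenna and was the most abundant of the group, had 9.4 and 15.0, against 101 and 114 in Ler (-3.07). PSAF (AT1G31330), the docking subunit for plastocyanin, had 17.7 and 31.6, against 87.6 and 98.8 in Ler (-1.93). Every one of the 12 had both mutant libraries below both Ler libraries.

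The 10 photosystem II genes were also all called lower, with a smaller median of -1.78. PSBQ-2 (AT4G05180), a subunit of the oxygen-evolving complex, stood apart at -3.45 (SE 0.29, adjusted p = 9.9e-07), with 0.616 and 0.793 in ein6-1 een-1, against 15.1 and 20.4 in Ler. Its paralog PSBQ-1 had 24.0 and 36.9, against 99.7 and 106 in Ler (-1.76). The small subunit gene PSBX (AT2G06520), the most abundant of the group, had 70.0 and 96.5, against 195 and 207 in Ler (-1.28, SE 0.26, adjusted p = 0.0015). PSBR (AT1G79040), a subunit that helps hold the oxygen-evolving proteins, had 36.9 and 57.3, against 160 and 169 in Ler (-1.81).

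The Rubisco group had the median nearest to 0, at -1.32, and its 5 genes, all called lower, were unequal. RBCS1A (AT1G67090), the most abundant of the 46 genes in the Ler table, had 652 and 919 in ein6-1 een-1, against 1217 and 1370 in Ler (log2 fold change -0.74, SE 0.25, adjusted p = 0.033). This call was lost on the deposited TPM (adjusted p = 0.15) and without the first ein6-1 een-1 air library (adjusted p = 0.25). RBCS3B (AT5G38410) had 204 and 329, against 761 and 878 in Ler (-1.65), and RBCS2B 274 and 414, against 729 and 784 in Ler (-1.16). RBCS1B (AT5G38430), named after its values were seen, fell furthest of the group, with 6.6 and 13.8 in ein6-1 een-1, against 94.3 and 94.3 in Ler (-3.17, SE 0.33, adjusted p = 4.7e-06), and it is also the member with the most shared sequence. RCA (AT2G39730) had 37.3 and 44.3, against 100.3 and 106 in Ler (-1.32).

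The make-up of the summed transcripts differed too. The antenna of photosystem II took 4.53% and 4.68% of the summed level of all members in ein6-1 een-1, against 12.1% and 12.4% in Ler. The Rubisco group took 70.7% in both ein6-1 een-1 libraries, against 52.3% and 52.5% in Ler. Photosystem I took 6.63% and 6.78%, against 13.4% and 13.4% in Ler, while photosystem II took 15.2% in both, against 17.8% and 17.4%. These shares are of TPM sums and are dominated by RBCS1A, RBCS2B and RBCS3B.

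**Figure D2:**
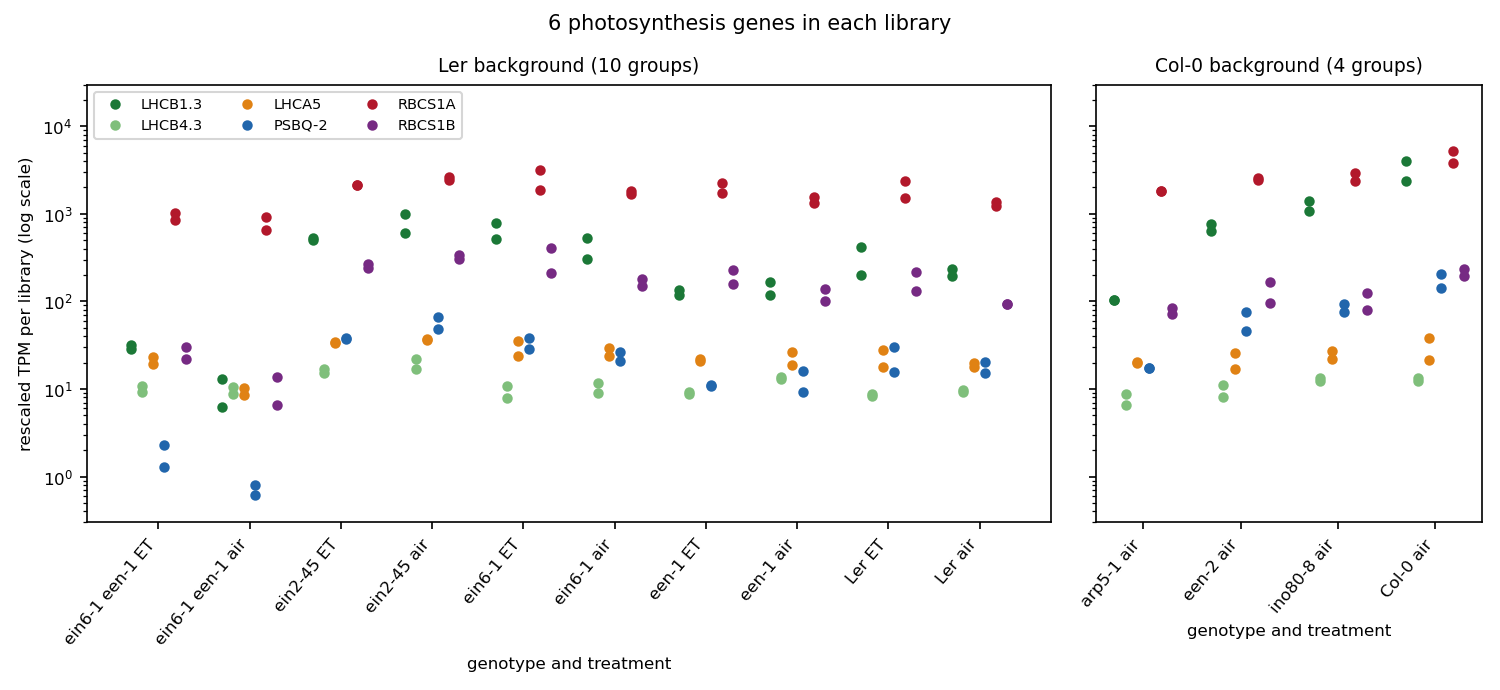
Rescaled TPM of 6 members in every library on a log axis, each point a library and each colour a gene. LHCB1.3, PSBQ-2 and RBCS1B drop steeply in ein6-1 een-1 (LHCB1.3 at 6.3 and 13.0 in air, against 196 and 236 in Ler), LHCB4.3 stays between 6.5 and 21.9 in every library, and RBCS1A lies above the other 5 genes in each library.

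The single mutants of the pair did not show this decrease. In ein6-1 in air, 4 of 45 members were called higher than in Ler and 0 lower, against 2.67% of all tested genes called higher, with a median log2 fold change of 0.62. All 45 had a positive fold change, and both ein6-1 libraries lay above both Ler libraries for 44 of the 46 genes. LHCB2.1 (AT2G05100), for a trimer protein that is phosphorylated during state transitions, had 8.92 and 9.46 in ein6-1, against 3.50 and 3.85 in Ler (1.12, SE 0.25, adjusted p = 0.013). LHCA1 had 47.5 and 45.7, against 25.9 and 25.4 in Ler (0.84, SE 0.22, adjusted p = 0.034). PSAH-2, a docking site for the mobile antenna, had 88.7 and 84.8, against 48.4 and 50.2 in Ler (0.80, SE 0.23, adjusted p = 0.049), and RCA 175 and 174, against 100.3 and 106 in Ler (0.75, SE 0.16, adjusted p = 0.011). The libraries of these 4 genes did not overlap. The count depended on the settings: it was 22 on the deposited TPM, where 2.32% of all tested genes were called higher and the median of all genes was shifted by 0.16, and 0 without the first Ler air library or without the first ein6-1 air library.

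In een-1 in air 0 of 45 members were called by limma in either direction, against 24.7% of all tested genes. At an unadjusted p below 0.05, 4 were higher and 1 lower, where 7690 of 20534 tested genes passed in either direction. The median log2 fold change was -0.04, and between -0.16 and 0.12 with one library left out. The range ran from -0.77 for LHCB1.2, with 19.7 and 31.6 in een-1, against 44.1 and 42.3 in Ler, to 0.57 for PSBS, the sensor of energy quenching, with 129.7 and 181, against 99.0 and 107 in Ler. All 5 genes of the Rubisco group were on the positive side, with a median of 0.35. On the deposited TPM 10 members were called higher, where 21.1% of all tested genes were, and the member median of 0.34 stood beside a median of 0.32 over all genes.

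Set against its own single mutants, the double mutant was lower in nearly every member. These comparisons and those with ein2-45 and after ET were added once the values had been seen, and they share the ein6-1 een-1 libraries. Against ein6-1, 44 of 45 members were called lower (median -2.77), where 18.8% of all tested genes were called lower. Against een-1, 44 of 45 were called lower (median -2.19), where 10.4% of all tested genes were. LHCB1.3 led both lists, at -5.32 (SE 0.36, adjusted p = 4.2e-08) against ein6-1 and -3.81 (adjusted p = 3.9e-06) against een-1. LHCB4.3 was again the member with the smallest difference in both, at -0.06 and -0.43.

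In the ein2-45 mutant, blocked in ET signalling, the same genes were higher. In air 43 of 45 members were called higher than in Ler and 0 lower, against 11.5% of all tested genes called higher, with a median log2 fold change of 1.32 (2.49-fold higher). Both ein2-45 libraries were above both Ler libraries for all 46 members. The sum over the 46 genes was 13839 and 12759 in ein2-45, against 5544 and 6156 in Ler. The medians by role were 1.76 for the antenna of photosystem II, 1.28 for the antenna of photosystem I, 1.31 for photosystem I, 1.21 for photosystem II and 0.98 for the Rubisco group.

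The largest increases were in the trimer genes. LHCB1.5 (AT2G34420) had 169 and 100.3 in ein2-45, against 25.5 and 30.1 in Ler (log2 fold change 2.2, SE 0.35, adjusted p = 3.4e-04). LHCB2.2 (AT2G05070) had 40.2 and 22.6, against 5.41 and 6.48 in Ler (2.17, adjusted p = 1.7e-04), and LHCB2.1 21.7 and 18.3, against 3.50 and 3.85 in Ler (2.16, adjusted p = 2.6e-05). LHCB1.3 had 991 and 610.4, against 196 and 236 in Ler (1.85, adjusted p = 1.8e-03), the first ein2-45 library being the higher. Every library of ein2-45 was above every Ler air library here, but the ein2-45 replicates themselves lay apart in the LHCB1 genes. LHCB4.3, not called in the double mutant, rose too, with 21.9 and 17.1 against 9.70 and 9.17 in Ler (0.96, SE 0.16, adjusted p = 6.4e-04). RBCS1A had 2454 and 2633, against 1217 and 1370 in Ler (0.98, SE 0.25, adjusted p = 0.011). The 2 members not called were PSAE-2, with 107 and 100.2 against 52.6 and 56.4 in Ler (0.92, adjusted p = 0.068), and PSBX, with 339 and 326 against 195 and 207 in Ler (0.72, adjusted p = 0.061). Members on the 5 chromosomes gave similar medians, between 1.28 and 1.39.

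Set directly against each other in air, ein6-1 een-1 was lower than ein2-45 in all 45 members tested (median -3.44), where 21.2% of all tested genes were called lower. LHCB1.3 differed by -6.27 (SE 0.36, adjusted p = 8.6e-09), with 6.3 and 13.0 in ein6-1 een-1, against 991 and 610.4 in ein2-45. These are the lowest and the highest air groups of the Ler table for LHCB1.3, and the other genotypes lay between them.

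**Figure D3:**
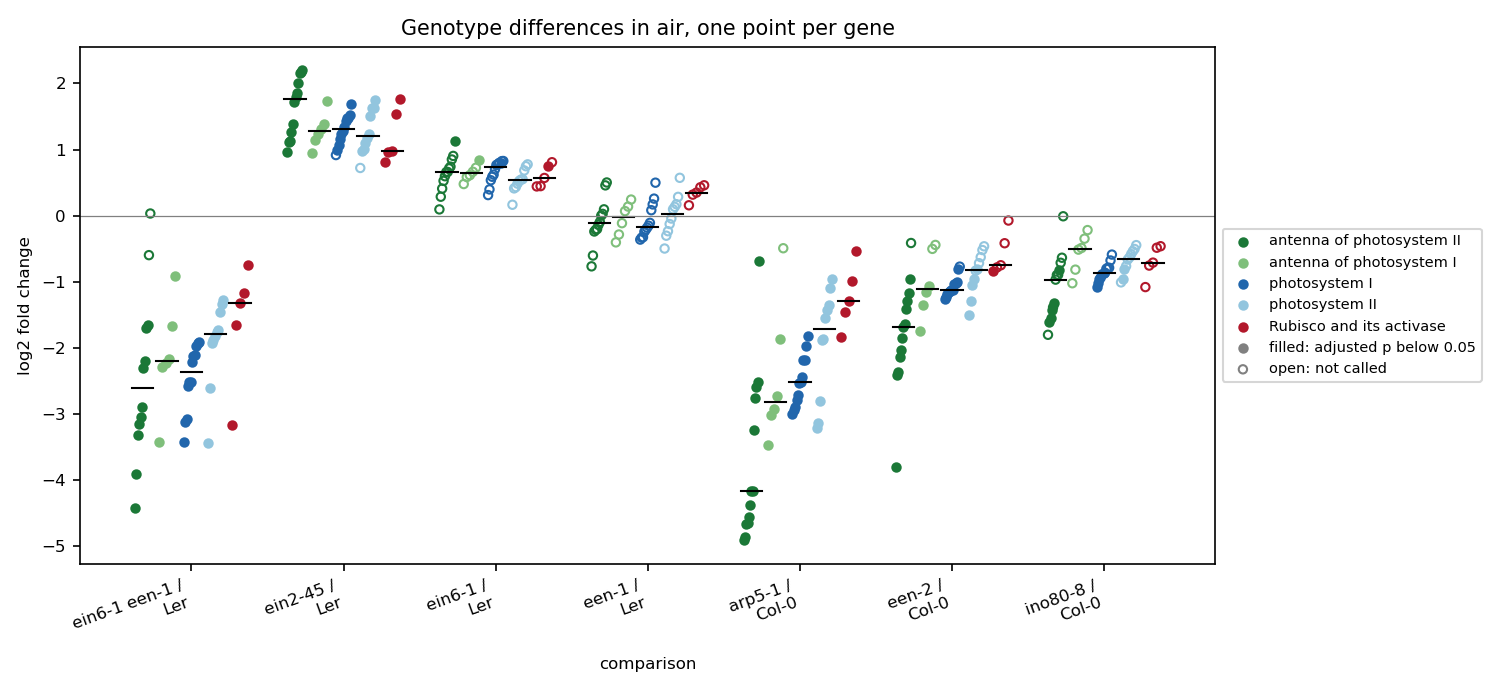
Log2 fold change of every tested member in 7 comparisons in air, mutant over wild type, coloured by role, with filled points for an adjusted p below 0.05 and bars for the median of each role. In ein6-1 een-1 and arp5-1 the points lie below 0, apart from LHCB4.3 at 0.03 in ein6-1 een-1, and spread widest in the antenna of photosystem II (medians -2.60 and -4.17), whereas those of ein2-45 lie above 0 (median 1.76).

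ET for 4 hr gave small differences in Ler. Of 45 members 3 were called higher and 0 lower, against 8.84% of all tested genes called higher, so the share of members was no larger than that of all genes. The median log2 fold change was 0.47, with 43 of 45 on the positive side, but it was 0.10 without the first Ler ET library and 0.82 without the second. RCA had 201 and 144 in ET, against 100.3 and 106 in air (0.72, SE 0.16, adjusted p = 0.0053). PSBS had 201 and 143, against 99.0 and 107 in air (0.72, SE 0.25, adjusted p = 0.048). RBCS3B had 1772 and 1179, against 761 and 878 in air (0.82, SE 0.28, adjusted p = 0.049). Both ET libraries were above both air libraries for these genes, but the first ET library was well above the second. All 5 Rubisco genes passed an unadjusted p of 0.05, as did 7020 of 20534 tested genes in either direction. On the deposited TPM 28 members were called higher, where 14.8% of all tested genes were and the median of all genes was shifted by 0.25.

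In ein6-1 no member was called by limma after ET, against 15.8% of all tested genes in either direction. The median was 0.40, with 44 of 45 positive. At an unadjusted p below 0.05, 5 were higher, where 6144 of 20534 tested genes passed in either direction. The second ein6-1 ET library, the one with the most ribosomal RNA, was the higher of the pair in every tested member after rescaling, with LHCB1.3 at 520.1 and 779 in ET, against 532 and 306 in air. The median was 0.76 without the first ein6-1 ET library and 0.07 without the second. The ET response of ein6-1 was not shown to differ from that of Ler for any member. Limma called 0 of 45, where 0.0146% of all tested genes were called. At an unadjusted p below 0.05, 0 passed, where 2148 of 20534 tested genes did in either direction. The median difference was -0.07, and between -0.41 and 0.30 with one library left out.

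In een-1 the medians of the role groups after ET were of either sign. The median over the 45 members was -0.06, and -0.20 without the first een-1 air library and 0.17 without the second. Of the members 0 were called higher and 1 was called lower, against 9.58% of all tested genes called lower. The called gene was LHCB4.3, with 8.74 and 9.31 in ET, against 13.7 and 12.9 in air (-0.52, SE 0.16, adjusted p = 0.047). The call was lost under 17 of 29 alternatives, among them the deposited TPM (adjusted p = 0.17). The Rubisco group was positive in 5 of 5 genes with a median of 0.44, and the antenna of photosystem II was positive in 3 of 12 with a median of -0.12. RBCS1A, for example, had 1720.2 and 2223 in ET, against 1316 and 1577 in air, and LHCB1.3 had 133 and 119.5 in ET, against 119.5 and 167 in air. The Rubisco group took 64.8% and 68.4% of the summed level in een-1 after ET, against 59.3% and 59.0% in air. The response of all 45 members was on the lower side in een-1 relative to Ler, but limma called 0 of them, and 0% of all tested genes. At an unadjusted p below 0.05, 2 members were lower, where 1271 of 20534 tested genes passed in either direction. The median difference was -0.45. This median was -0.09 without the first Ler ET library, -0.81 without the second and -0.28 without the second een-1 air library.

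In ein6-1 een-1, the genotype with the lowest levels in air, 4 members rose after ET. All 45 members were positive, with a median of 0.73. Of these, 4 were called higher and 0 lower, against 0.443% of all tested genes called higher. At an unadjusted p below 0.05, 33 were higher, where 1657 of 20534 tested genes passed in either direction. LHCA3 had 14.3 and 18.7 in ET, against 3.7 and 7.1 in air (1.5, SE 0.27, adjusted p = 0.016). LHCB6 (AT1G15820), a linker protein unique to land plants, had 17.4 and 20.5, against 6.5 and 8.2 in air (1.26, SE 0.25, adjusted p = 0.034). LHCA5 had 19.4 and 23.3, against 8.6 and 10.4 in air (1.1, SE 0.21, adjusted p = 0.029), and PSBO1, the main stabiliser of the manganese cluster, 42.3 and 54.0, against 16.9 and 25.6 in air (1.16, SE 0.25, adjusted p = 0.048). None of these 4 genes had overlapping libraries. LHCB1.3 had the largest fold change without a call, with 28.5 and 31.5 in ET, against 6.3 and 13.0 in air (1.61, SE 0.36, adjusted p = 0.062). Of 29 alternatives, the call was lost under 17 for PSBO1, 12 for LHCB6, 5 for LHCA5 and 3 for LHCA3. Without the first ein6-1 een-1 air library, or without either ein6-1 een-1 ET library, 0 members were called, and with the deposited TPM 10 were (0.277% of all tested genes). The response was not shown to differ from that of Ler. Limma called 0 members, where 9.1% of all tested genes were called in either direction. At an unadjusted p below 0.05, 6 were higher, where 4623 of 20534 tested genes passed in either direction. The median difference was 0.29. The sign of that median rested on one library, as it was 0.63 without the first Ler ET library and -0.04 without the second, and 0.06 and 0.47 without the first and the second ein6-1 een-1 air library.

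After ET the double mutant still had less than Ler. In that added comparison 41 of 45 members were called lower (median -1.88), where 15.9% of all tested genes were called lower. LHCB1.3 had 28.5 and 31.5 in ein6-1 een-1, against 418 and 202 in Ler, both after ET (-3.24, SE 0.36, adjusted p = 6.1e-06). LHCA5 overlapped with Ler, with 19.4 and 23.3, against 28.2 and 17.8 in Ler (-0.07).

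In ein2-45 no member was called by limma after ET, and 0% of all tested genes were called. All 45 members had a negative fold change, with a median of -0.34. At an unadjusted p below 0.05, 2 were lower, where 623 of 20534 tested genes passed in either direction. Both ET libraries lay below both air libraries for 42 of the 46 genes, a count with no share over all genes to judge it by. For RCA the values were 223 and 235 in ET, against 322 and 284 in air (-0.40, SE 0.16). The response of ein2-45 was lower than that of Ler in all 45 members, with a median difference of -0.81 (-0.46 without the first Ler ET library). The difference was called for RCA (-1.12, SE 0.23, adjusted p = 0.0056) and for no other member, against 2.89% of all tested genes called lower. On the deposited TPM 9 members were called lower (1.86% of all tested genes), where the median of all genes was shifted by -0.19. After ET 15 of 45 members were called higher in ein2-45 than in Ler and 0 lower (median 0.50), where 17% of all tested genes were called higher.

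PSBO2 (AT3G50820), the second PSBO gene, led that comparison after ET, with 56.5 and 57.3 in ein2-45, against 26.5 and 13.5 in Ler (1.53, SE 0.26, adjusted p = 3.4e-04). LHCA1 had 72.0 and 67.9, against 36.9 and 22.8 in Ler (1.24, SE 0.22, adjusted p = 5.4e-04), and LHCB2.1 18.8 and 15.5, against 7.87 and 5.16 in Ler (1.29, adjusted p = 1.0e-03). The ein2-45 libraries were the closer pair in each gene. The median over the members in this comparison was 0.19 without the second Ler ET library and 0.85 without the first.

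**Figure D4:**
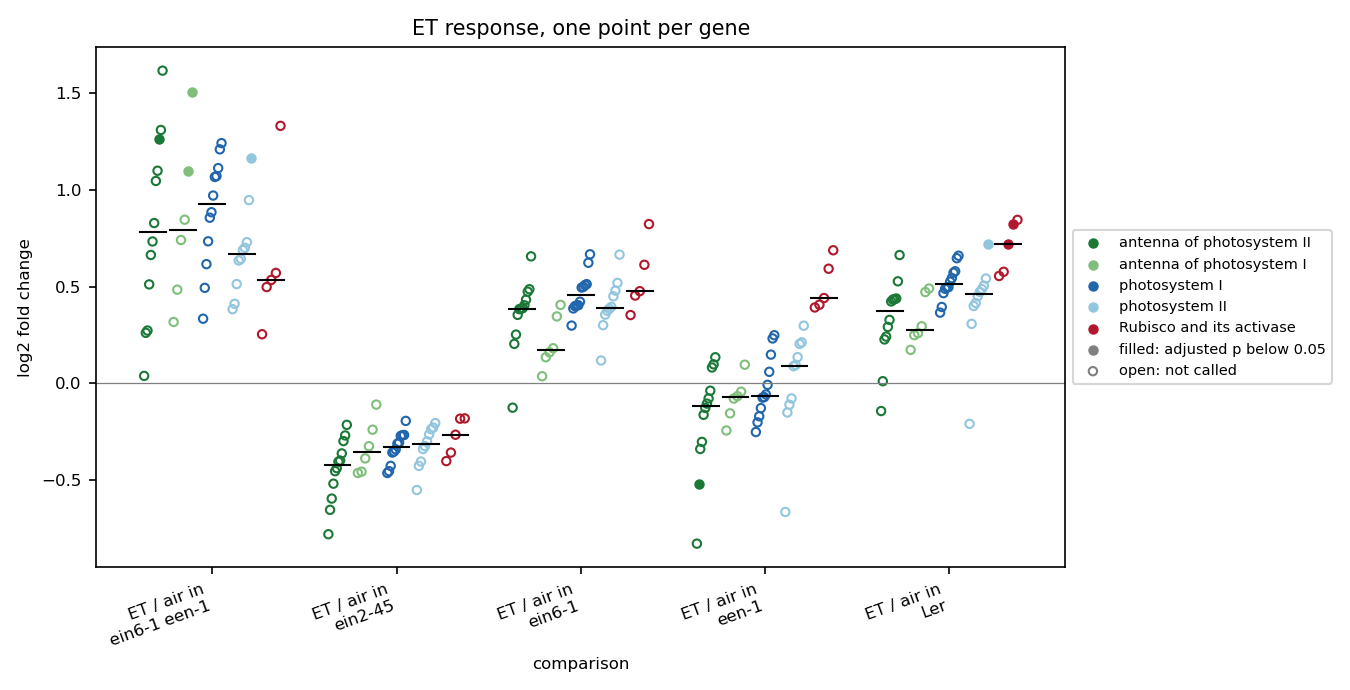
Log2 fold change of every tested member, ET over air, in 5 genotypes, coloured by role, with filled points for an adjusted p below 0.05 and bars for the median of each role. The points of ein6-1 een-1 lie above 0 (4 called), those of ein2-45 below 0 (none called), and in een-1 the Rubisco group lies above 0 (median 0.44) while the antenna of photosystem II does not (median -0.12).

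The Col-0 table asked whether loss of INO80 complex subunits alone moved these genes in air. In arp5-1 the photosynthesis transcripts were lower in every role. Of 46 members 45 were called lower and 0 higher, against 25.4% of all tested genes called lower, with a median log2 fold change of -2.55 (5.87-fold lower). Both arp5-1 libraries lay below both Col-0 libraries for all 46 genes. Levels in the Ler and Col-0 tables are scaled apart and were not tested against each other. Of the seed markers 10 of 10 were called higher here, where 5190 of 20145 tested genes were, and the part of these markers was not tested. The summed level of the members was 6424 and 6510.4 in arp5-1, against 20089.9 and 28573 in Col-0.

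The order of the roles ran from the antenna of photosystem II (median -4.17) over the antenna of photosystem I (-2.82), photosystem I (-2.52) and photosystem II (-1.71) to the Rubisco group (-1.30). LHCB1.2 had 2.89 and 2.92 in arp5-1, against 93.6 and 144 in Col-0 (-4.91, SE 0.30, adjusted p = 7.0e-06). LHCB1.3, the most abundant antenna gene, had 104 and 105 in arp5-1, against 2375 and 3964 in Col-0 (-4.86, SE 0.24, adjusted p = 1.9e-06). LHCB2.2 had 7.27 and 4.50, against 133 and 217 in Col-0 (-4.66), LHCB1.5 had 19.8 and 19.2, against 408.5 and 646 in Col-0 (-4.65), and LHCB2.1 had 6.11 and 5.91, against 129.5 and 209.7 in Col-0 (-4.56). The arp5-1 pair was tight and the Col-0 pair was not, the second Col-0 library being the higher in every member. LHCB1.4 was listed at 0 in both arp5-1 libraries, against 15.0 and 19.0 in Col-0.

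In the other roles, LHCA4 had 71.2 and 73.4 in arp5-1, against 396 and 586 in Col-0 (-2.72), and LHCA2, of the same antenna, 43.6 and 48.1, against 409.6 and 659 in Col-0 (-3.48). PSAL had 77.7 and 79.8, against 436 and 621 in Col-0 (-2.71), and PSBO1 96.1 and 108, against 569 and 901 in Col-0 (-2.80). RBCS1A had 1800.4 and 1819, against 3763 and 5261 in Col-0 (-1.30, SE 0.22, adjusted p = 0.0011). The smallest differences were in RBCS2B, LHCB4.3 and LHCA5. RBCS2B had 1253 and 1209, against 1593 and 2007 in Col-0 (-0.54, SE 0.20, adjusted p = 0.046), a call that was lost without the second Col-0 library (adjusted p = 0.24). LHCB4.3 had 8.85 and 6.50, against 12.4 and 13.3 in Col-0 (-0.69, SE 0.19, adjusted p = 0.015). LHCA5, not called, had 20.12 and 20.01, against 21.6 and 37.9 in Col-0 (-0.49, SE 0.26, adjusted p = 0.15). These 3 were singled out after their values were seen. The antenna of photosystem II took 6.81% and 7.07% of the summed level in arp5-1, against 25.6% and 28.1% in Col-0, and the Rubisco group 63.8% and 63.2%, against 37% and 34.6% in Col-0.

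In een-2 33 of 46 members were called lower and 0 higher, against 5.28% of all tested genes called lower, with a median of -1.09 (2.13-fold lower) and 42 genes with both een-2 libraries below both Col-0 libraries. The antenna of photosystem II again had the lowest median (-1.69), with 12 of its 13 genes called. LHCB1.4 had 0.301 and 0.263 in een-2, against 15.0 and 19.0 in Col-0 (-3.80, SE 0.66, adjusted p = 0.012). LHCB2.1 had 31.0 and 29.4, against 129.5 and 209.7 in Col-0 (-2.41, SE 0.25, adjusted p = 1.9e-03), and LHCB1.3 643 and 760.4, against 2375 and 3964 in Col-0 (-2.13, SE 0.24, adjusted p = 3.0e-03). The een-2 libraries stayed clear of Col-0 in all 3. Only 1 of the 5 Rubisco genes was called, RBCS1A, with 2405 and 2575 in een-2, against 3763 and 5261 in Col-0 (-0.84), a call lost without either Col-0 library, and RBCS2B overlapped, with 1506 and 1918, against 1593 and 2007 in Col-0 (-0.07, SE 0.20). Without the second Col-0 library 10 members were called.

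In ino80-8 11 of 46 members were called lower and 0 higher, against 1.53% of all tested genes called lower, with a median of -0.81. All 46 had a negative fold change. At an unadjusted p below 0.05, 40 were lower, where 3592 of 20145 tested genes passed in either direction. For 43 both ino80-8 libraries were below both Col-0 libraries. The called genes were 5 of the antenna of photosystem II, 4 of photosystem I and 2 of photosystem II. LHCB2.1 had 42.1 and 67.3 in ino80-8, against 129.5 and 209.7 in Col-0 (-1.61, SE 0.25, adjusted p = 0.014), and LHCB1.3 1070.4 and 1412, against 2375 and 3964 in Col-0 (-1.32, SE 0.24, adjusted p = 0.026). PSAE-1, a subunit at the ferredoxin docking site, had 127 and 166, against 263 and 361 in Col-0 (-1.08, SE 0.23, adjusted p = 0.041). The count was 0 without the second Col-0 library and 0 without the first ino80-8 library.

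Comparisons among the mutants of this table were added after the values were seen. Relative to ino80-8, arp5-1 was lower in 39 of 46 members (median -1.88), where 22.1% of all tested genes were called lower, and LHCB1.5 led with -3.75 (SE 0.22, adjusted p = 8.4e-06). Between een-2 and ino80-8, limma called 0 of 46 members, against 1.87% of all tested genes in either direction. At an unadjusted p below 0.05, 13 were lower, where 3601 of 20145 tested genes passed in either direction. The median was -0.33, and -0.13 without the first een-2 library. These een-2 and ino80-8 values were not shown to differ, which does not show that they are alike.

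Other genes of the pathway, taken from lists chosen with earlier results known, had mostly the same direction as the members in the comparisons with the most calls, with exceptions among the closest relatives. Of 11 nuclear genes for electron transport and the ATP synthase, 10 were called lower in ein6-1 een-1 than in Ler in air (median -1.43), 9 were called higher in ein2-45 (median 0.84) and 9 were called lower in arp5-1 than in Col-0 (median -0.96). PETE2, one of the plastocyanin genes, had the lowest value of that list in ein6-1 een-1, at -2.53. Of 12 Calvin cycle genes, 10 were called lower in ein6-1 een-1 (median -1.02), 11 higher in ein2-45 (median 1.26) and 10 lower in arp5-1 (median -1.16). GAPA, a chloroplast glyceraldehyde-phosphate dehydrogenase subunit, stood at -2.36 in ein6-1 een-1, while the transketolase gene TKL1, not called, stood at 0.12. After ET in Ler, 5 electron transport genes were called higher and 1 lower, with the Rieske protein gene PETC at 0.70 and the other plastocyanin gene PETE1 at -0.92.

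The 6 light-harvesting and photosystem II genes outside the 46 were less uniform. Of the 5 tested in the Ler table, 2 were called lower and 1 higher in ein6-1 een-1 than in Ler in air (median -0.17). LHCB7, a rare relative of the antenna proteins, was the one called higher, with 3.89 and 3.23 in ein6-1 een-1, against 1.74 and 1.34 in Ler (0.85, SE 0.26, adjusted p = 0.017). PSBTN, a small photosystem II subunit, had 23.4 and 32.7, against 84.8 and 98.0 in Ler (-1.69), and PSB28 was called lower at -0.62. LHCB2.3 and PSB27, an assembly factor, were not called, with LHCB2.3 at 2.48 and 3.37 in ein6-1 een-1, against 3.57 and 3.19 in Ler, and PSB27 at 24.2 and 27.6, against 28.0 and 25.3 in Ler. In ein2-45 4 of the 5 were called higher (median 1.05), led by LHCB2.3, with 55.4 and 39.2 in ein2-45, against 3.57 and 3.19 in Ler (3.44), while LHCB7 was not called (0.28). In arp5-1 5 of 6 were called lower than in Col-0 (median -1.40), and LHCB7 was not (-0.64).

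The plastid-encoded partners (7 genes, among them psaA, psbA and rbcL) gave other counts than the nuclear genes. In ein6-1 een-1 1 of 7 was called lower (median -1.15) and in een-1 5 of 7 (median -1.52), where 2883 of 20534 tested genes were. In ein2-45 limma called 0 of 7, with a median of -0.002. In arp5-1 5 of 7 were called lower (median -1.85), where 25.4% of all tested genes were. Organelle genes took 0.461% and 0.393% of the TPM in een-1 air, against 2.88% and 1.12% in Ler air. The summed plastid level also differed within a pair, from 41.5 to 182 in Col-0. How far these counts follow the organelle share was not tested. A list of 11 genes for greening held regulators and also the chlorophyll synthesis genes GUN4, GUN5, PORA and PORB. Of these 11, 7 were called lower and 1 higher in ein6-1 een-1, led by GUN5, a chlorophyll synthesis subunit, at -2.23. In ein2-45 4 were called higher, led by GUN5 at 1.71, and 2 lower, with PIF3 at -0.90. PIF3 had 59.3 and 55.2 deposited TPM in ein6-1 een-1 in air, against 56.5 and 63.6 in Ler. PIF1 had 38.5 and 47.9, against 19.8 and 22.95 in Ler, and GLK1 7.64 and 9.93, against 5.26 and 6.74 in Ler. On that scale the median of all genes was shifted by 0.33. Rescaling divides these values by 1.15 and 1.09 in ein6-1 een-1 and by 0.817 and 0.903 in Ler. Rescaling therefore lowers ein6-1 een-1 relative to Ler, so the deposited values do not give the difference on the scale of the calls. The part of the genes on this list in the results was not tested. In arp5-1 7 were called lower and 0 higher, with GUN4, which helps the same enzyme as GUN5, at -2.90.

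Markers of seed and root also differed between genotypes. Of the 10 seed storage and oil body genes, 8 were called higher in ein6-1 een-1 than in Ler in air, where 3572 of 20534 tested genes were. The seed markers summed to 73.4 and 54.8 in ein6-1 and 190.4 and 317 in ein2-45, with 10 of 10 called lower in each. Of all 20534 tested genes, 850 were called lower in ein6-1 and 2390 in ein2-45. In een-1 the seed markers summed to 1548 and 3422, with 1 of 10 called higher, where 2184 of 20534 tested genes were. In the Col-0 table the seed markers summed to 3870.4 and 3744 in arp5-1 (10 of 10 called higher), 1040.2 and 589 in een-2 (9 of 10), and 1280.3 and 976 in ino80-8 (9 of 10), against 48.7 and 49.3 in Col-0. Of all 20145 tested genes, 5190 were called higher in arp5-1, 763 in een-2 and 284 in ino80-8. The part of the seed markers in the photosynthesis results was not tested. Of 5 root and root hair markers tested, 4 were called higher in arp5-1, 4 lower in ein2-45, 3 lower in een-1 and 0 by limma in ein6-1 een-1. Over all tested genes the counts were 5190 higher in arp5-1, 2390 lower in ein2-45 and 2883 lower in een-1. In ein6-1 een-1 they were 3572 higher and 4078 lower. The genes called higher in arp5-1 included XTH14, with 439 and 323 in arp5-1, against 109 and 111 in Col-0, and PRP3, with 388 and 337, against 144 and 138 in Col-0. PYK10, not called, makes up most of the sum, with 6608 and 6175 in arp5-1, against 8049 and 7529 in Col-0, so the sum ran the other way. The root markers summed to 7498 and 6899 in arp5-1, against 8333 and 7807 in Col-0, and to 7269 and 7137 in ein6-1 een-1, against 10257 and 9959 in Ler, and their part was not tested either. The light markers PORC, ELIP1 and ELIP2 were called higher in ein2-45 (3 of 3) and lower in ein6-1 een-1 (2 of 3) and arp5-1 (2 of 3). The shares of all tested genes called in these directions were 11.5%, 19.9% and 25.4%, in the same order.

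**Figure D5:**
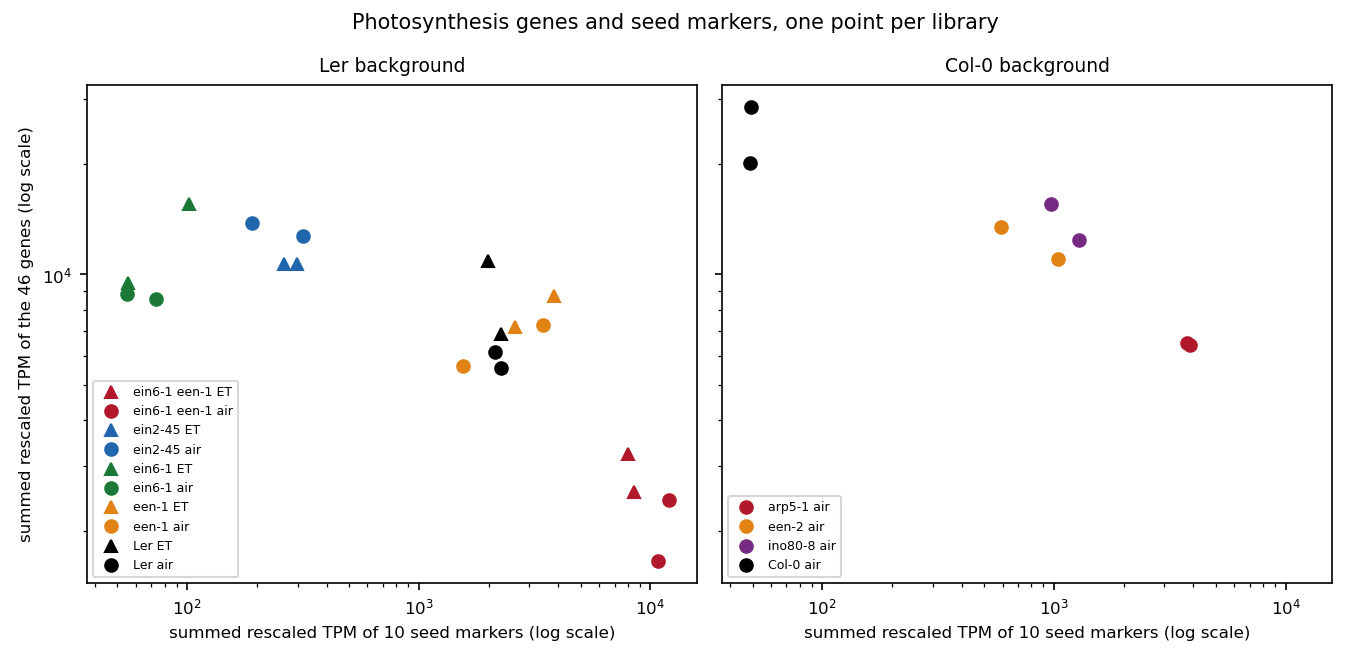
Summed rescaled TPM of the 46 photosynthesis genes (vertical axis) and of 10 seed markers (horizontal axis), both on log axes, with a point per library, triangles for ET and circles for air. In the Ler background the ein6-1 een-1 libraries lie lowest and furthest right (members at 1659 and 2434 and seed markers at 10745 and 12045 in air), and in the Col-0 background the arp5-1 libraries do (members at 6424 and 6510.4).

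In ein6-1 een-1 the members with CCAATC upstream had a median of -2.29 over 11 genes, against -2.04 over the 34 others tested. In ein2-45 the medians were 1.62 and 1.25, and in arp5-1 -3.22 over 11 genes and -2.18 over 35. Genes with a G-box gave -1.83 over 8 genes and -2.17 over the 37 others in ein6-1 een-1. The antenna genes hold most copies of CCAATC, so motif and role are not separated in these medians.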

How the data were processed

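RNA was sequenced as single reads, and the authors aligned the reads with STAR (2.6.0c) to TAIR10 and estimated gene levels with RSEM. The deposited values are TPM for 33602 genes, in one table of 20 libraries in Ler and one of 8 in Col-0, and another 4 columns repeat libraries of the first and were not counted again. Depth could not be read from TPM. Of 126 samples in the series only these 28 libraries were used.

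TPM were rescaled within each table by median-of-ratios factors, since ribosomal RNA shares differed. Genes with at least 1 rescaled TPM in at least 2 libraries were tested on log2(rescaled TPM + 1) with limma (3.58.1, R 4.3.3), one model per table with a variance trend, and p-values were adjusted by Benjamini-Hochberg over all genes tested. The threshold was 0.05. Fold changes on this scale understate those of low genes. The labels name biological replicates but not separate cultures, so p-values measure the spread between these samples.

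Of 23 comparisons, 16 follow from the groups of the study and 7 were chosen after seeing the data. The members, lists and naming rule were chosen with earlier results of these data known. With values are named the 2 most abundant members of each role and up to 5 called members of largest change in each comparison, and the other members named, such as LHCB4.1, LHCB4.2, PSBQ-1, LHCB1.1, LHCA5 and RBCS1B, were chosen after their values were seen. Alternatives covered scaling, filter, pseudocount, samples in the model, a replicate block and leaving out each library. The model was tested on simulated data. Sequences came from the RefSeq TAIR10.1 genome and were read with Biopython (1.88) under Python (3.11.15), with tables in pandas (2.3.3) and plots in matplotlib (3.10.9).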

Additional observations from a re-analysis of the deposited data

Results flagged for a closer look

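The ET response of RCA, the Rubisco activase gene, differed between ein2-45 and Ler by limma's interaction test (log2 difference -1.12, SE 0.23, adjusted p = 0.0056). RCA had 223 and 235 rescaled TPM after ET, against 322 and 284 in air, in ein2-45 (log2 fold change -0.40), and 201 and 144 after ET, against 100.3 and 106 in air, in Ler (0.72). Both ein2-45 ET libraries lay below the air libraries and both Ler ET libraries above them. Over 29 alternatives the difference lay between -1.36 and -0.88, with adjusted p between 0.0018 and 0.031.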

How the results depend on the processing

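For the 101 pairs of a named gene and a comparison, no call changed direction under any alternative run (2358 values on the same side of the threshold, 166 no longer called and 30 newly called). Depth is unknown, and with 2 libraries per group the counts near the threshold moved most. On the deposited TPM the members called were 28 for ET in Ler, 10 for ET in ein6-1 een-1, 22 for ein6-1 in air, 10 for een-1 in air and 9 for the response of ein2-45 minus that of Ler. With scaling by the nuclear total without rRNA they were 14, 10, 15, 5 and 9 in the same order, and 2 for ET in een-1. With no minimum TPM they were 1 for ET in Ler, 0 for ET in een-1, 1 for ET in ein6-1 een-1, 2 for ein6-1 in air, 8 for ein2-45 against Ler after ET and 1 for ino80-8, and with a minimum of 5 TPM 1 for een-1 in air. A pseudocount of 0.1 gave 1 for ET in Ler and 2 for ET in een-1, and a pseudocount of 5 gave 2 for ET in ein6-1 een-1. With the compared groups alone the counts were 5 for ET in Ler, 3 for ET in een-1, 8 for ET in ein6-1 een-1, 26 for ein6-1 in air, 7 for een-1 in air, 6 for the response of ein2-45 minus that of Ler and 21 for een-2. Leaving out ribosomal RNA and organelle genes, chosen after seeing the data, gave 2 for ET in een-1. The causes were not tested. Apart from those on the deposited TPM, these counts are given without the share of all genes called under the same setting. The same holds for the counts below, so a change in the members is not separated from a general change in calls.

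Leaving out one library at a time gave 0 (without the first Ler ET library) to 16 calls for ET in Ler, 0 to 22 (without the first ein6-1 ET library) in ein6-1, 0 to 2 in een-1 and 0 (without the first ein6-1 een-1 air library) to 9 in ein6-1 een-1. In air it gave 0 (without the first Ler air library) to 10 for ein6-1, 0 to 1 for een-1, 42 to 43 for ein6-1 een-1 and 35 to 45 for ein2-45. The response minus that of Ler gave 0 to 3 for ein6-1 een-1 and 1 to 11 (without the second Ler ET library) for ein2-45. After ET, ein2-45 against Ler gave 5 to 26. In the Col-0 table it gave 10 (without the second Col-0 library) to 33 for een-2, 0 (without the same library) to 14 for ino80-8, 43 to 46 for arp5-1 and 0 to 1 for een-2 against ino80-8.

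Over all tested genes, replicate numbers were not found to pair the samples: the correlation of same-numbered deviations lay between -0.094 and 0.158. Among the members the first library was lower by the median in Col-0 (-0.51), een-2 (-0.37) and ino80-8 (-0.32), and little so in arp5-1 (-0.04). Whether the members share a shift by replicate number was not tested. With the replicate number as a block the counts were 0 for ET in een-1, 30 for ino80-8 and 3 for een-2 against ino80-8.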
